A study of Mus musculus with 6 samples.

Results

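C-type lectin receptors of myeloid cells are single-pass membrane proteins that macrophages, monocytes and neutrophils use to sense microbial sugars and glycolipids, crystals and dead cells. The set described here was chosen by gene symbol and holds 10 genes of the 16836 in the deposited table: Clec4a1, Clec4a2, Clec4a3, Clec4d, Clec4e, Clec4n, Clec5a, Clec7a, Clec12a and Clec2d. Each of the 10 passed the filter on low values and was among the 12118 genes tested. The activating receptors among them couple to the kinase SYK, either through the ITAM-bearing adaptors FcRγ (gene Fcer1g) and DAP12 (gene Tyrobp) or through a short ITAM-like motif in their own tail, and SYK signals through CARD9 to NF-κB. The inhibitory receptors carry an ITIM in the tail, which recruits the phosphatases SHP-1 (gene Ptpn6) and SHP-2 (gene Ptpn11). In macrophages this family is known for the sensing of fungi and mycobacteria.

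The transcripts were measured by RNA sequencing of macrophages grown from mouse bone marrow, in 3 libraries from Ube3a knockout mice (KO, labelled UBE3A KO or Ube3a-/-) and 3 from wild-type littermates (WT). No treatment, age, sex, strain or description of the knockout allele is given in the labels, and the libraries are not said to come from separate animals. Each p-value below reflects spread among these libraries, and how much of that spread is technical is not known. Reads of Xist, given below, set replicate 2 of each genotype apart from replicates 1 and 3, so the spread is not technical alone. The labels give the tissue as bone marrow and the cell type as macrophage. Each of the 12 macrophage markers looked for passed the filter on low values, with a summed level of 15247 to 18491 CPM (reads scaled to a common library size) in KO and 16204 to 18072 CPM in WT. The neutrophil list summed to 31.7 to 43.3 CPM in KO and 35.8 to 46.5 CPM in WT, with 6 of its 12 genes tested. Csf3r had the most, at 20.1 to 24.9 CPM in KO and 13.8 to 25.3 CPM in WT, and Mmp8 stood at 5.40 to 10.9 CPM in KO and 5.41 to 17.1 CPM in WT. S100a8, S100a9, Ngp and Ltf stood at 0.200 to 3.21 CPM in KO and 0.495 to 4.94 CPM in WT, and Camp, Elane and Cxcr2 under 1 CPM in every library. A library held 25454862 to 35517269 reads in the table, which makes 1 read worth 0.0277 to 0.0400 CPM. Ube3a itself stood at 69.7, 61.2 and 77.0 CPM in KO replicates 1 to 3 and at 207.1, 193.7 and 177.6 CPM in WT replicates 1 to 3, a log2 fold change of −1.47 (limma with Benjamini-Hochberg adjustment, adjusted p = 0.00444).

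Several libraries stood apart in ways that the genotype does not give. Reads of Xist, the RNA that silences an X chromosome in female cells, numbered 28 for KO replicate 2, 14 for WT replicate 2 and at least 30161 for each other library. Interferon-stimulated genes (12 listed, for example Isg15, Ifit1 and Rsad2) summed to 1240, 301.4 and 619.9 CPM in KO replicates 1 to 3 and to 319.5, 1027 and 398.5 CPM in WT replicates 1 to 3. KO replicate 1 and WT replicate 2 were thus the high libraries for this list, and results that rest on these libraries are given with and without them. Cxcl10 alone of the list did not follow. It stood at 4.84, 4.59 and 6.38 CPM in KO replicates 1 to 3 and at 7.68, 6.40 and 6.93 CPM in WT replicates 1 to 3.

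The 10 genes lie on chromosome 6 in 3 places (GENCODE M21 on GRCm38; for the deposited values the sources used here name no build). Clec5a (40574894 to 40585821, minus strand) stands alone. A block known for Dectin-2 and DCIR holds, in order, Clec4a1 (122921848 to 122934619, plus strand), Clec4a3 (122952515 to 122969875, plus), Clec4a2 (123106428 to 123143999, plus), Clec4n (123229843 to 123247021, plus), Clec4d (123262111 to 123275265, plus) and Clec4e (123281789 to 123289870, minus). The gap from Clec4d to Clec4e is 6.52 kb. The NK gene complex farther along holds Clec2d (129180615 to 129186534, plus), Clec12a (129342691 to 129365303, plus) and Clec7a (129461591 to 129472779, minus), and GENCODE M21 lists Clec7a as a polymorphic pseudogene. In that annotation no exon of another gene overlaps an exon of a member. Near-identical copies were looked for as stretches of 50 bases in a member's transcripts that also occur in a transcript of another gene. Such stretches made up 6.83% of Clec4a2 (shared with 447 genes, among them Clec4a4 and Clec4b1), 1.98% of Clec2d (shared with Clec2g and Clec2i), 0.686% of Clec4n and 0.457% of Clec12a, and none were found in the other 6 members. The level of Clec4a2 is the most exposed of the 10 to reads of other genes.

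Promoter windows from RefSeq (GRCm38.p6, 250 bases before to 50 after an annotated start) were at hand for 9 of the 10 members, and 4 short motifs of factors active in macrophages were searched in them on both strands. The PU.1 core GAGGAA was in a window of 7 of the 9 members, against 28.3% of 32851 windows of all genes. The units differ, since a member counts if any of its windows matched. Clec4a3 and Clec7a have 2 windows each, and 1 window of Clec4a3 held no match. Clec4a2 and Clec2d held none. The IRF motif, a pair of GAAA with NN between them, was in windows of Clec2d and Clec4d (3.44% of all windows), the AP-1 motif TGANTCA in those of Clec4a2 and Clec12a (7.81%), and the C/EBP motif TTGCNNAA in those of Clec4e and Clec12a (10.8%). A match is a run of letters and no evidence of binding. The IRF match of Clec4d overlaps a GAGGAA match, read on the other strand. Shown first are the neighbours Clec4d (chr6:123261857-123262156, plus strand) and Clec4e (chr6:123289822-123290121, minus strand), which share 1 order of libraries from highest to lowest. Clec12a (chr6:129349994-129350293, plus) is shown as the other abundant receptor, Clec4a2 (chr6:123122440-123122739, plus) as the member with the smallest p, and Clec2d (chr6:129180365-129180664, plus) as a member that was high in the interferon-high libraries. Each is written 5′ to 3′ in the direction of the gene, with motif matches in capitals.
Clec4d: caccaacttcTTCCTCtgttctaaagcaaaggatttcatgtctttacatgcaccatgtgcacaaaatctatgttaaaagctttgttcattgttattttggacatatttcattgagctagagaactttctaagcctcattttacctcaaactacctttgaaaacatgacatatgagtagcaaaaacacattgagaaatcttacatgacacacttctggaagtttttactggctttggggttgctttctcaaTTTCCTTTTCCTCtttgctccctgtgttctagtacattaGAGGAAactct
Clec4e: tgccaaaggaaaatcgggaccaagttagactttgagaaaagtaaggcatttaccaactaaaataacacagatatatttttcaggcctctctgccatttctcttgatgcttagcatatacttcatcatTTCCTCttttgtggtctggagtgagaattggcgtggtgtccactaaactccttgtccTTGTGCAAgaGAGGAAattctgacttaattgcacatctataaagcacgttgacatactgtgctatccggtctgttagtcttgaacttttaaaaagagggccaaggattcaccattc
Clec12a: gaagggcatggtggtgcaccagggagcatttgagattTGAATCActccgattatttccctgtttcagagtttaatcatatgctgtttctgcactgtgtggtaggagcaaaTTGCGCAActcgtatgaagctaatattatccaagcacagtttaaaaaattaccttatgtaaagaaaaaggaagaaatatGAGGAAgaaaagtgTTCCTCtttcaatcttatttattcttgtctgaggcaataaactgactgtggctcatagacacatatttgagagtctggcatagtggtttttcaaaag
Clec4a2: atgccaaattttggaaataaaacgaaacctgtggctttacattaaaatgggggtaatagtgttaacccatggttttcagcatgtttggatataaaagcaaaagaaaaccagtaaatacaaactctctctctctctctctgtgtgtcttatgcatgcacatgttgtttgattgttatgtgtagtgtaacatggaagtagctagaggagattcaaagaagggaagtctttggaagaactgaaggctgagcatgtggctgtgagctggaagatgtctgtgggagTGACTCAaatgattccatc
Clec2d: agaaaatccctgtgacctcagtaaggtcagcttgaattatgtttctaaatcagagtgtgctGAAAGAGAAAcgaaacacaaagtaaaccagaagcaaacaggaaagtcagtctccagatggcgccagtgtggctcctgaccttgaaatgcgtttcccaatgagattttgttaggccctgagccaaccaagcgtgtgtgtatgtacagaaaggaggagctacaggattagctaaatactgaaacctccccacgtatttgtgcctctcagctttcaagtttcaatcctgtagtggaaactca

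Levels differed between the receptor genes by far more than between genotypes. To compare genes, CPM were divided by the length of the merged exons of each gene. Clec4d stood highest, at 214.3 to 284.4 CPM per kilobase over the 6 libraries. Clec12a (68.7 to 94.2) and Clec4e (62.1 to 94.4 CPM per kilobase) came next and could not be ordered, since their ranges overlap. Clec5a followed at 28.0 to 39.3 CPM per kilobase, with its lowest library below the highest of Clec4a1. Below it Clec4a1 (13.1 to 30.9), Clec4n (11.7 to 29.7), Clec4a3 (9.09 to 16.1), Clec4a2 (8.99 to 13.04) and Clec2d (7.92 to 15.1 CPM per kilobase) overlapped each with the next. Clec7a, which encodes Dectin-1, the receptor for fungal β-glucan, was lowest in each library at 5.88 to 7.39 CPM per kilobase. Merged exons count every annotated isoform. Divided instead by the longest coding transcript, the order was the same but for Clec4a2 and Clec4a3, which changed places, and Clec4e had a mean of 155.2 CPM per kilobase, against 295.5 for Clec4d. In plain CPM, Clec12a, Clec4d and Clec4e together took 81.0% to 83.6% of the reads of the 10 genes in each library.

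**Figure D1:**
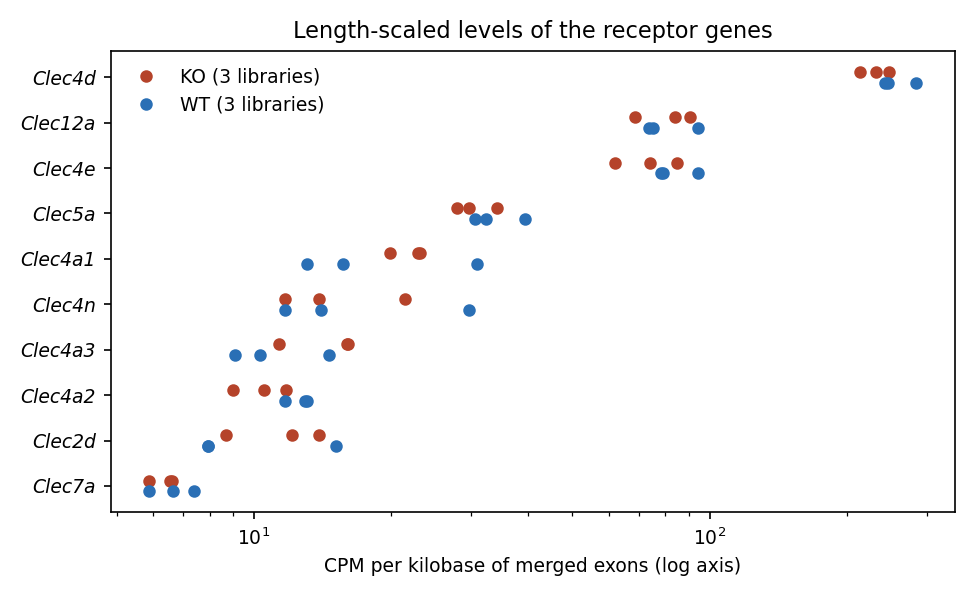
Level of each receptor gene in CPM per kilobase of merged exons (log axis), with 1 point per library, KO above WT in each row. Clec4d lies above all others at 214.3 to 284.4, Clec7a lies below them at 5.88 to 7.39, and the points of KO and WT overlap in every row.

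None of the 10 receptor genes passed the test for a difference between KO and WT. With limma on log2(CPM + 1), 0 of 10 members passed a Benjamini-Hochberg adjusted p of 0.05 (adjusted p from 0.866 to 0.998), as did 2 of 12118 tested genes, or 0.0165%. An unadjusted p under 0.05 was reached by 1 member, Clec4a2, against 4.13% of tested genes. It was lower in KO, as were 2.44% of tested genes at that p, while 1.68% were higher in KO and no member was. The other test run, limma-voom on the recovered reads, gave 0 called members and 1 with an unadjusted p under 0.05, against 4.2% of tested genes. In 0 of 10 members did the KO libraries lie apart from the WT libraries, which was so for 9.95% of tested genes. The log2 fold change, KO over WT, was negative for 7 members and positive for 3, with a median of −0.10, against 0.0015 over the tested genes, of which 49.6% were negative. The 95% interval of the fold change lay within 2-fold of no change for the 10 members and within 1.5-fold for 6 of them. On this scale fold changes of the genes with lower CPM are slightly understated. In bulk RNA, fewer cells of a type and less RNA per cell cannot be told apart.

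**Figure D2:**
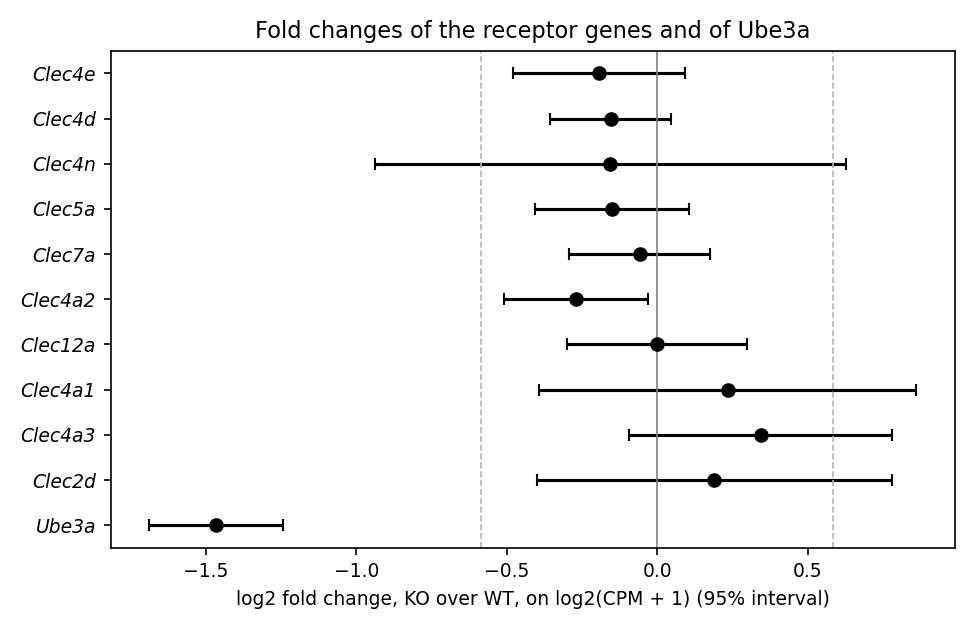
Log2 fold change of each receptor gene and of Ube3a, KO over WT on the log2(CPM + 1) scale, with its 95% interval from limma (n = 3 libraries per genotype). Dashed lines mark 1.5-fold. Intervals of 9 receptor genes span 0, that of Clec4a2 ends at −0.03, and Ube3a lies apart at −1.47.

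The activating receptors of the Dectin-2 block were led by Clec4e and Clec4d. Clec4e encodes Mincle, which binds the mycobacterial cord factor trehalose dimycolate and signals through FcRγ. It stood at 420.1, 308.4 and 367.3 CPM in KO replicates 1 to 3 and at 468.7, 387.5 and 393.1 CPM in WT replicates 1 to 3. WT replicate 1 was highest and KO replicate 2 lowest, and KO replicate 1 lay within the WT range. The means were 365.3 ± 55.9 CPM in KO and 416.4 ± 45.4 CPM in WT (SD, n = 3 each), a log2 fold change of −0.19 ± 0.12 (SE; 95% interval −0.48 to 0.09; limma adjusted p = 0.866). Clec4d encodes MCL, a partner of Mincle that also couples to FcRγ. It stood at 396.3, 342.6 and 370.8 CPM in KO and at 454.7, 388.0 and 393.6 CPM in WT, which is the order of libraries seen for Clec4e from highest to lowest. Its log2 fold change was −0.15 ± 0.09 (SE; 95% interval −0.36 to 0.05; limma adjusted p = 0.866).

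Clec4d and Clec4e held nearly equal reads in each library. Reads of Clec4d over reads of Clec4e came to 0.943, 1.11 and 1.01 in KO replicates 1 to 3 and to 0.970, 1.001 and 1.001 in WT replicates 1 to 3. The ratio does not depend on how libraries are scaled, and it is a ratio of reads and not of molecules, since the genes differ in length.

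Clec4n, the third activating receptor of the block, varied most of all members. It encodes Dectin-2, the receptor for fungal α-mannan, which signals through FcRγ. It stood at 30.4, 19.8 and 16.6 CPM in KO replicates 1 to 3 and at 19.9, 42.2 and 16.6 CPM in WT replicates 1 to 3. WT replicate 2 and KO replicate 1, the 2 libraries with the highest interferon-stimulated genes, stood above the other 4. The KO libraries lay within the WT range, and WT replicate 2 lay above every KO library. The means were 22.3 ± 7.21 CPM in KO and 26.2 ± 13.9 CPM in WT (SD, n = 3 each). The log2 fold change of −0.16 had a 95% interval of −0.94 to 0.63 (limma adjusted p = 0.929). It turned to 0.24 without WT replicate 2 and to 0.02 without KO replicate 3, and was −0.0026 without both interferon-high libraries.

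The other activating receptors are Clec5a and Clec7a. Clec5a encodes MDL-1, which pairs with DAP12 and whose human counterpart binds dengue virus. It stood at 131.1, 107.4 and 113.7 CPM in KO and at 151.0, 124.0 and 117.4 CPM in WT. KO over WT came to −0.15 on the log2 scale (95% interval −0.41 to 0.11; limma adjusted p = 0.866). As with Clec4d and Clec4e, WT replicate 1 was highest, KO replicate 1 next and KO replicate 2 lowest. Clec7a had 17.4, 15.5 and 17.3 CPM in KO and 19.5, 17.5 and 15.5 CPM in WT, with 435 to 609 reads per library. Its log2 fold change was −0.06 (95% interval −0.29 to 0.17; limma adjusted p = 0.916), and it was 0.02 without WT replicate 1. As a group the 5 activating receptors summed to 995.3, 793.7 and 885.6 CPM in KO and to 1114, 959.2 and 936.1 CPM in WT, with 891.6 ± 101.0 CPM in KO and 1003 ± 96.6 CPM in WT (SD, n = 3 each). Most of this sum is Clec4d and Clec4e. The inhibitory pair summed to 478.1 ± 64.6 CPM in KO and 484.5 ± 61.0 CPM in WT, and Clec4a1 with Clec4a3 to 53.5 ± 6.43 CPM in KO and 46.0 ± 18.8 CPM in WT. KO and WT libraries overlapped in each of these sums, and none was tested.

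**Figure D3:**
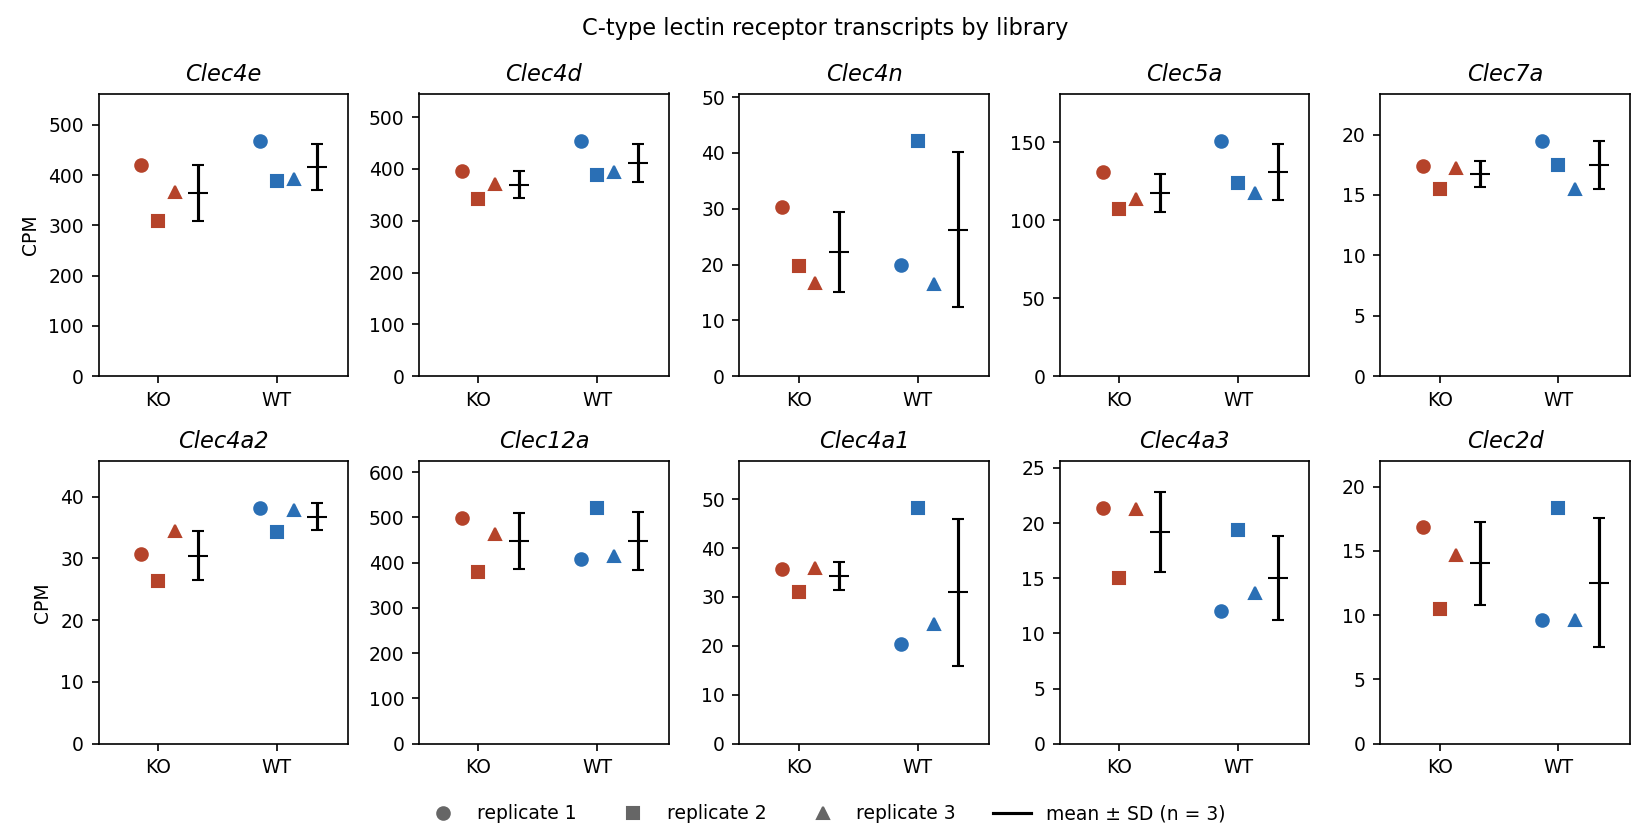
CPM of each receptor gene in each library, KO left of WT in each panel, with 1 symbol per replicate and the mean ± SD beside it (n = 3). Axes start at 0. The genotypes overlap in every panel, and WT replicate 2 stands far above the other WT libraries for Clec4n, Clec4a1 and Clec2d.

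Among the inhibitory receptors, Clec4a2 had the smallest p of the set and Clec12a nearly equal means. Clec4a2 encodes DCIR, an ITIM-bearing receptor whose loss in mice leads to autoimmune joint disease. It stood at 30.8, 26.3 and 34.4 CPM in KO replicates 1 to 3 and at 38.2, 34.3 and 37.9 CPM in WT replicates 1 to 3. KO replicate 3 and WT replicate 2 met at 34.4 and 34.3 CPM, and the other 2 KO libraries lay below the WT libraries. The means were 30.5 ± 4.04 CPM in KO and 36.8 ± 2.17 CPM in WT (SD, n = 3 each). The log2 fold change was −0.27 ± 0.10 (SE; 95% interval −0.51 to −0.03; limma unadjusted p = 0.0317, adjusted p = 0.866). It was negative in each of the 17 alternative fits, at −0.36 to −0.17, with limma adjusted p from 0.383 to 0.9998. Clec4a2 is also the member with the largest share of sequence found in other genes, and its part in this value was not tested.

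Clec12a encodes MICL, an ITIM-bearing receptor for uric acid crystals and dead cells. It stood at 499.6, 379.5 and 463.7 CPM in KO replicates 1 to 3 and at 407.5, 520.5 and 415.2 CPM in WT replicates 1 to 3. WT replicate 2 was highest, KO replicate 1 next and KO replicate 2 lowest. The means were 447.6 ± 61.7 CPM in KO and 447.7 ± 63.1 CPM in WT (SD, n = 3 each), with a 95% interval of the log2 fold change of −0.30 to 0.30 (limma adjusted p = 0.998). As a fold, KO over WT, that interval is 0.813 to 1.23.

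The DCIR relatives without an ITIM had the largest positive values. Clec4a3 stood at 21.4, 15.04 and 21.3 CPM in KO replicates 1 to 3 and at 12.1, 19.3 and 13.7 CPM in WT replicates 1 to 3. KO replicates 1 and 3 were the 2 highest libraries, but KO replicate 2 lay below WT replicate 2. The log2 fold change was 0.34 ± 0.19 (SE; 95% interval −0.09 to 0.78; limma adjusted p = 0.866). Clec4a1 stood at 35.8, 31.0 and 36.0 CPM in KO and at 20.4, 48.2 and 24.4 CPM in WT. The KO libraries lay close together, between a single high WT library, replicate 2, and the 2 low ones. The means were 34.2 ± 2.81 CPM in KO and 31.0 ± 15.02 CPM in WT (SD, n = 3 each), and the log2 fold change was 0.23 (95% interval −0.39 to 0.86; limma adjusted p = 0.892). Leaving out WT replicate 2 gave 0.59, and leaving out WT replicate 1 gave −0.0080.

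The balance between these relatives differed by library in the WT group. Reads of Clec4a1 over reads of Clec4a2 came to 1.16, 1.18 and 1.05 in KO replicates 1 to 3 and to 0.534, 1.41 and 0.645 in WT replicates 1 to 3. The KO libraries again lay between WT replicate 2 and the other WT libraries.

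Clec2d encodes Clr-b, which in mice is the ligand of the inhibitory NK cell receptor NKR-P1B. It stood at 16.9, 10.5 and 14.7 CPM in KO replicates 1 to 3 and at 9.60, 18.3 and 9.62 CPM in WT replicates 1 to 3, with 300 to 518 reads per library. WT replicate 2, KO replicate 1 and KO replicate 3 were the high libraries, which are also the 3 with the highest interferon-stimulated genes. The log2 fold change was 0.19 (95% interval −0.40 to 0.78; limma adjusted p = 0.9003), and it was 0.48 without WT replicate 2. With the level of the interferon-stimulated genes as a covariate it was 0.11 for Clec2d, 0.16 for Clec4a1, 0.28 for Clec4a3 and −0.25 for Clec4n, and 0 members passed (limma adjusted p from 0.731 to 0.865).

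Without the 2 Xist-low libraries the DCIR relatives and Clec2d came close to the threshold. In the remaining KO replicates 1 and 3 and WT replicates 1 and 3, log2 fold changes were 0.69 for Clec4a3, 0.66 for Clec4a1 and 0.66 for Clec2d (limma adjusted p = 0.0557, 0.0557 and 0.0602). Then 5 of 10 members had an unadjusted p under 0.05, against 11.4% of tested genes in that fit, and 0 passed, while 24 of all tested genes did. That fit leaves out WT replicate 2, the highest library of all 6 for Clec4a1 and Clec2d and the highest WT library for Clec4a3. It also leaves out KO replicate 2, the lowest KO library for each of these genes, and rests on 2 libraries per genotype. With Xist as a covariate and the 6 libraries kept, the value was 0.34 for Clec4a3, 0.24 for Clec4a1 and 0.19 for Clec2d. Without the 2 interferon-high libraries, KO replicate 1 and WT replicate 2, it was 0.45 for Clec4a3, 0.56 for Clec4a1 and 0.34 for Clec2d, and −0.35 for Clec4e, −0.25 for Clec4d and −0.27 for Clec5a. In that fit 0 members passed, against 12 of all tested genes, and 5 had an unadjusted p under 0.05, against 8.55% of tested genes (limma lowest adjusted p = 0.291). Leaving out WT replicate 2 alone, 0 members passed, against 8 of all tested genes, and 4 had an unadjusted p under 0.05, against 10.6% of tested genes.

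The members showed 2 patterns across libraries, neither of which separated the genotypes. Relative to the mean of the 6 libraries on the log2(CPM + 1) scale, Clec4n, Clec2d, Clec4a1, Clec4a3 and Clec12a were positive in both KO replicate 1 (0.17 to 0.40) and WT replicate 2 (0.20 to 0.86). The same 5 were negative in KO replicate 2 (−0.27 to −0.02), WT replicate 1 (−0.60 to −0.13) and WT replicate 3 (−0.44 to −0.10). They split in KO replicate 3, where Clec4n stood at −0.43 and Clec2d, Clec4a1, Clec4a3 and Clec12a at 0.06 to 0.33. Clec4e, Clec4d, Clec5a and Clec7a had their highest library in WT replicate 1 (0.18 to 0.29) and their lowest in KO replicate 2 (−0.33 to −0.13). For Clec4e, Clec4d and Clec5a, KO replicate 3 was the next lowest, below every WT library, while KO replicate 1 was the second highest. Clec4a2 followed neither wholly, with 0.19 and 0.18 in WT replicates 1 and 3 and −0.33 in KO replicate 2. These groups were read off the values and were not tested.

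The first pattern ran with the interferon list and with Bst2 and Itgax of the dendritic cell list, and no list had the library order of the second. On the same centred scale, means of the interferon list were 1.003, −0.88 and 0.16 for KO replicates 1 to 3 and −0.71, 0.87 and −0.43 for WT replicates 1 to 3. The dendritic cell list, of which Bst2, Itgax and Kmo were tested, summed to 156.5 to 319.1 CPM in KO and 118.4 to 344.8 CPM in WT. It was high in the same 2 libraries, at 0.52 in KO replicate 1 and 0.63 in WT replicate 2. Bst2 and Itgax were highest in these libraries, whereas Kmo was highest in KO replicate 3, at 2.31 CPM. The defining dendritic cell genes Flt3, Zbtb46 and Xcr1 stayed under 1 CPM in every library. Means of the macrophage list were 0.15, 0.16 and −0.06 for the KO libraries and −0.25, 0.20 and −0.20 for the WT libraries. One of its genes, the complement subunit C1qa, had 400.0, 422.5 and 245.3 CPM in KO, against 193.5, 460.8 and 195.6 CPM in WT. Stem and progenitor genes (Cd34 and 1 other tested) had −0.37, −0.36 and −0.03 for the KO libraries and 0.53, −0.31 and 0.54 for the WT libraries, summing to 31.4 to 42.5 CPM in KO and 34.9 to 85.1 CPM in WT. Of the 2 genes, Cd34 had a log2 fold change of −0.96 (limma adjusted p = 0.866) and Meis1, at 4.88 to 6.57 CPM, one of −0.05. Neutrophil genes had −0.67, 0.08 and 0.15 for the KO libraries and 0.43, −0.39 and 0.42 for the WT libraries. Csf3r, the most abundant of them, ran otherwise, highest in WT replicate 2 (25.3 CPM) and lowest in WT replicate 1 (13.8 CPM). Its log2 fold change was 0.31, while the other 5 tested genes of the list were negative. Monocyte genes, summing to 419.4 to 620.8 CPM in KO and 403.9 to 504.1 CPM in WT, had −0.12, −0.09 and 0.36 for the KO libraries and 0.09, −0.35 and 0.12 for the WT libraries. The B, T and NK cell list summed to 2.70 to 4.38 CPM in KO and 2.08 to 4.08 CPM in WT. The part of these cell states in the receptor levels was not tested, apart from the covariate fit on the interferon list.

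**Figure D4:**
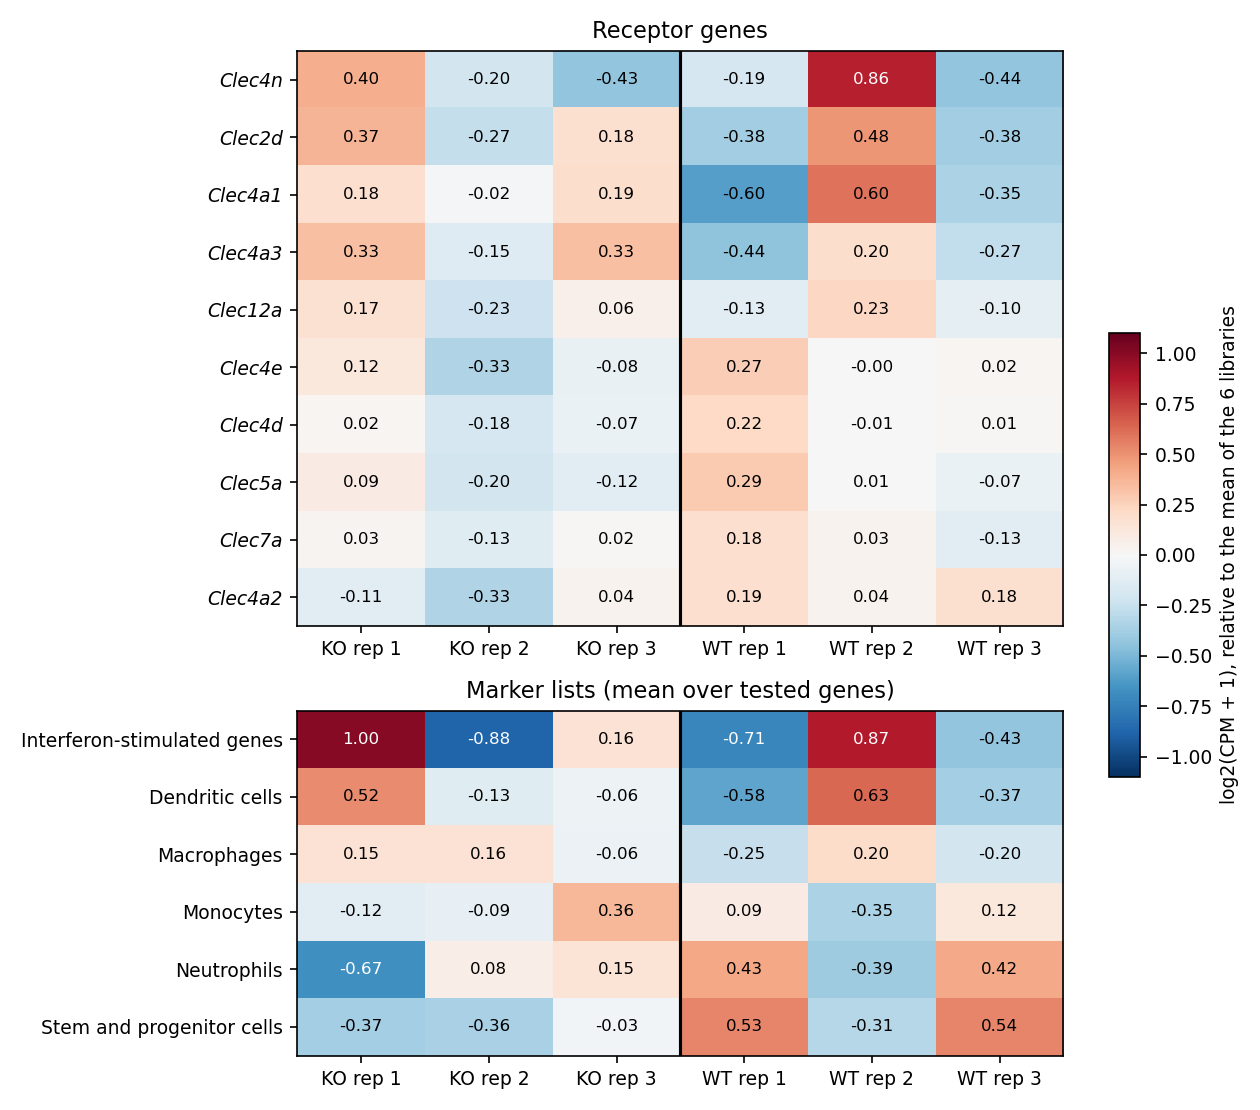
Log2(CPM + 1) of each receptor gene (upper panel) and mean over the tested genes of each marker list (lower panel), relative to the mean of the 6 libraries, with KO libraries left of WT libraries. The upper 5 receptor genes are positive in KO replicate 1 and WT replicate 2, as is the interferon list at 1.003 and 0.87, while the next 4 are highest in WT replicate 1.

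Against the transcriptome the members were variable. The SD over the 6 libraries on the log2(CPM + 1) scale was 0.12 to 0.52, with a median of 0.20, against a median of 0.12 over tested genes. Of all tested genes, 1.28% had an SD at least as large as that of Clec4n, 2.18% as that of Clec4a1, 2.87% as that of Clec2d and 4.64% as that of Clec4a3. Clec7a was the least variable, with 52.3% of genes at or above its SD. The genes nearest in pattern were sought for the 3 most variable members, by the root mean square gap between centred profiles over the 6 libraries. Nearest to Clec4n were Itgad (gap 0.089 on the log2 scale), an integrin chain, Fpr2 (0.13), a formyl peptide receptor, and Dusp8 (0.17), a phosphatase. Nearest to Clec4a1 were Trf (0.11), which encodes transferrin, Cpeb1 (0.11), an RNA-binding protein, and Hist1h1c (0.12), a linker histone. Nearest to Clec2d were Rgs18 (0.083), Rgs2 (0.087), both regulators of G protein signalling, and Cpeb1 (0.088). Itgad (1.47 to 4.85 CPM), Fpr2 (3.02 to 7.57), Trf (2.66 to 7.22) and Dusp8 (3.23 to 7.71 CPM) were low. On the log2(CPM + 1) scale their swings are understated, which enters the gaps. The genes named as nearest were picked from 12118 for their likeness and are named as a description.

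None of the signalling partners of the receptors passed the test. Of 22 listed partners, all tested, 0 passed, 16 were positive and 6 negative, with a median log2 fold change of 0.05 (limma lowest adjusted p = 0.866). None had an unadjusted p under 0.05. Fcer1g, the FcRγ chain that Mincle, MCL and Dectin-2 share, averaged 489.0 ± 42.4 CPM in KO and 429.8 ± 68.6 CPM in WT (SD, n = 3 each; log2 fold change 0.19, 95% interval −0.08 to 0.47). Hcst, the adaptor DAP10, averaged 3.64 ± 0.899 CPM in KO and 2.75 ± 0.312 CPM in WT. Vav1, an exchange factor downstream of SYK, had a log2 fold change of 0.10 and Malt1, a partner of CARD9 and BCL10, one of −0.18. Syk and Card9 stood at 0.05 and 0.12, Tyrobp at 0.08, and the ITIM phosphatases Ptpn6 and Ptpn11 at 0.08 and 0.03.

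Transcripts known to be induced through these receptors passed the test in 0 of 9 tested cases, of 18 listed, with 4 positive, 5 negative and a median log2 fold change of −0.02. An unadjusted p under 0.05 was reached by 2, in opposite directions. Cxcl2, a neutrophil chemokine, averaged 15.3 ± 0.712 CPM in KO and 20.0 ± 4.11 CPM in WT (SD, n = 3 each), a log2 fold change of −0.34 with a limma adjusted p of 0.866. Il10, an anti-inflammatory cytokine, averaged 1.94 ± 0.188 CPM in KO and 1.39 ± 0.213 CPM in WT (0.30; limma adjusted p = 0.866). For Ptgs2, which encodes cyclooxygenase-2, the log2 fold change was −0.49, and for the chemokine Ccl4 it was 0.19. The labels name no stimulation, and Il6, Il12b and Csf2 are among the listed genes that did not enter the test.

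Other genes with a C-type lectin domain passed in 0 of 14 tested cases, of 37 listed, with 11 positive, 3 negative and a median log2 fold change of 0.09. Clec10a, a receptor for galactose and N-acetylgalactosamine, averaged 8.39 ± 1.37 CPM in KO and 6.34 ± 0.921 CPM in WT (0.35, 95% interval 0.02 to 0.69; limma unadjusted p = 0.0401, adjusted p = 0.866). Mrc1, the mannose receptor, averaged 742.7 ± 189.6 CPM in KO and 473.0 ± 238.2 CPM in WT, with a 95% interval of the log2 fold change from −0.05 to 1.52. Colec12, a scavenger receptor with a collagen-like stalk, had a log2 fold change of 0.52, and Thbd, thrombomodulin, one of 0.11.

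**Figure D5:**
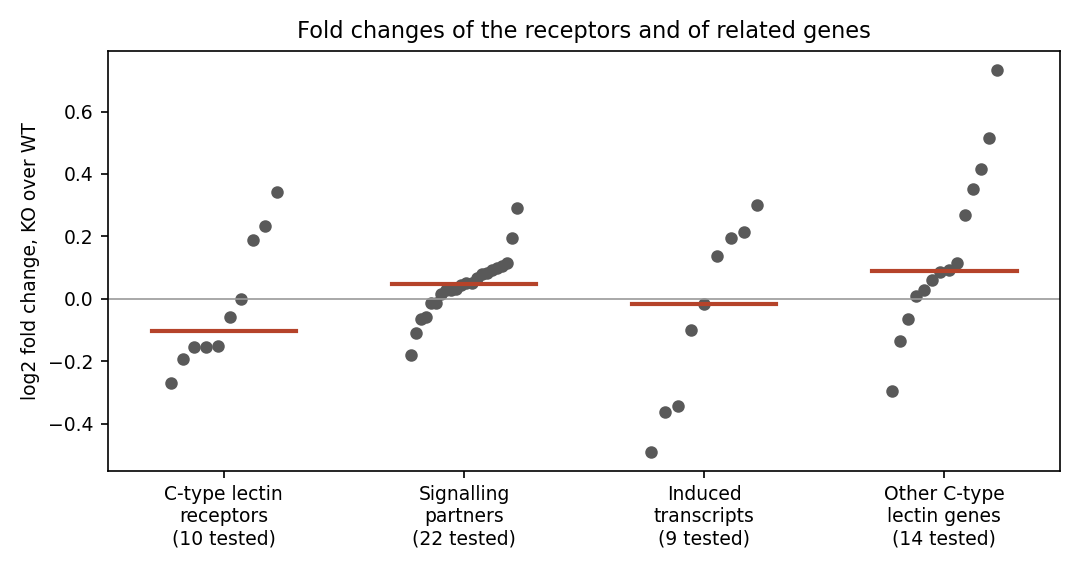
Log2 fold change, KO over WT, of each tested gene in the receptor set and in 3 related lists, with 1 point per gene in rising order and a bar at the median. Medians lie at −0.10 for the receptors, 0.05 for signalling partners, −0.02 for induced transcripts and 0.09 for other C-type lectin genes, and no point passed the threshold.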

How the data were processed

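mRNA was sequenced in 6 libraries, grouped by the genotype in their titles. The submitters' processing notes name HISAT2 2.1.0, Cufflinks, FastQC 0.11.15, Trimmomatic 0.36 and HTSeq 0.11.0, and the labels' protocols a Direct-zol and a KAPA mRNA kit. Build, annotation, strand setting and the role of each tool are not given in the sources here. Values headed CPM, which the authors deposited, are read from their size as log2 CPM with a prior count and had lost the decimal mark at sizes of 1 or more. The step of 1 read in each library fixed the mark and returned whole reads (within 1e-06) for 100% of values. The authors' own deposited log2 fold changes and unadjusted p-values were not used for calls.

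CPM were computed from the recovered reads on the authors' scaled library sizes (0.982 to 1.02 times the reads in the table). The 12118 genes that reached 1 CPM in 3 or more libraries were fitted as log2(CPM + 1) with limma 3.58.1 (eBayes with trend, genotype as the only term) in R 4.3.3, with limma-voom on the reads as an alternative. Calls are at a two-sided Benjamini-Hochberg adjusted p under 0.05 over the tested genes, and intervals are at 95%. Named are the members, Ube3a, the 4 genes with the smallest p in each of the 3 pathway lists, some partners, marker genes and list members chosen after their values were seen, and the 3 genes nearest in pattern to each of the 3 most variable members. The members and lists were chosen with earlier results of these data known. Levels per kilobase and positions use GENCODE M21.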

Additional observations from a re-analysis of the deposited data

How the results depend on the processing

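Of 17 alternative fits, 0 called a member, and Ube3a passed in each. The number of all tested genes called was 2, against 1 with no filter on low values and with limma-voom, 24 without both replicate 2 libraries, 1 to 8 with 1 library left out, and, in alternatives chosen after seeing the data, 12 without KO replicate 1 and WT replicate 2 and 4 with the interferon list as a covariate. Members with an unadjusted p under 0.05 numbered 1, against 0 to 4 with 1 library left out, 5 in either fit without 2 libraries and 2 with the interferon list as a covariate. The share of all tested genes at that p was 4.13% in the main fit and 1.23% to 10.6% with 1 library left out. It was 11.4% without both replicate 2 libraries, 8.55% without KO replicate 1 and WT replicate 2, and 6.3% with the interferon list as a covariate. The median log2 fold change of the members, −0.10, was −0.16 to 0.03 with 1 library left out and turned to 0.11 without both replicate 2 libraries; the cause was not tested. Signs turned for 4 members. Clec12a, at −0.00074, was 0.23 without both replicate 2 libraries and 0.028 without KO replicate 1 and WT replicate 2. Clec4n was 0.30 without both replicate 2 libraries. With 1 library left out, Clec12a ranged from −0.085 to 0.11, Clec4n from −0.41 to 0.24, Clec4a1 from −0.0080 to 0.59 and Clec7a from −0.14 to 0.018. With the replicate number as a block the median of the members was −0.10 with 0 called. Deviations of same-numbered KO and WT libraries from their group means correlated at −0.22, −0.13 and 0.14 across genes, which are not independent replicates, so the numbers were not taken as pairs. Both replicate 2 libraries are low in Xist, however, and Clec4e, Clec4d, Clec5a and Clec4a2 were lower in KO within each of the 3 same-numbered pairs. The share of all tested genes that did so was not computed, so this is a description and no result about the members. Under the block limma gave Clec4e an unadjusted p of 0.0553, against 0.155 without it, and an adjusted p of 0.927. The unadjusted limma p was 0.0176 for Clec4a2 (0.0317 without the block), 0.0814 for Clec5a (0.210) and 0.0868 for Clec4d (0.115). Each of these also had an adjusted p of 0.927. For Clec4a3 it rose from 0.108 to 0.152, and it also rose for Clec2d, Clec7a and Clec12a.

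With 3 libraries per genotype, the 95% intervals of Clec4n, Clec4a1, Clec4a3 and Clec2d reach past 1.5-fold in at least 1 direction. A member had at least 300 reads in each library, and the part of counting error in the spread was not tested.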
